A study of Mus musculus with 12 samples.

Results

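The oligoadenylate synthetase (Oas) family was examined in whole bone marrow of mice after total body irradiation (TBI), oral treatment with deinoxanthin (DEIX, a carotenoid pigment of bacteria) or both. The family was taken as 8 named genes, Oas1a, Oas1b, Oas1c, Oas1g, Oas2, Oas3, Oasl1 and Oasl2, matched by GENCODE vM21 symbol to the rows of an expression table of 21853 genes. The table lists 7 of the 8, and all 7 passed the filter on low values (FPKM of at least 1 in at least 3 libraries). Oas1b, annotated as a polymorphic pseudogene, has no row and was not analysed here. The mice were named only as B6, with no age, and there were 4 groups of 3 libraries, 12 in all. Control mice were not irradiated, and no gavage or vehicle is stated for them. TBI mice received 5 Gy of γ-rays at 0.66 Gy per minute and then 100 µL of olive oil by gavage as vehicle. TBI+DEIX mice received the same irradiation and oral DEIX at 25 mg per kg body weight, given daily for 14 days, and DEIX mice received DEIX alone. Marrow was taken 14 days after irradiation. TBI and oil gavage therefore cannot be told apart in the comparison of TBI with control, nor DEIX and its oral administration in the comparisons of DEIX and TBI+DEIX with control. The labels do not say whether each library came from a separate mouse, so a p-value measures only the spread between these libraries. The members were chosen by gene family, and the family was selected on its FPKM levels in these libraries, with results of these data in view, so the counts of members below describe it and are not independent evidence of a direction.

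Oas proteins bind double-stranded RNA, and the enzymes among them then link ATP into 2'-5' oligoadenylates, small messengers of the antiviral response. Their genes are a standard readout of interferon: interferon receptors activate a complex that includes Stat2 and Irf9 (ISGF3), which binds a DNA element in the promoters of its target genes, and marrow shows some activity of this pathway without infection. Oas1a, Oas1g, Oas2, Oas3 and Oasl2 are active synthetases in the mouse. Oas1c and Oasl1 are described as lacking this activity, and mouse Oasl1 is known as a repressor of the translation of Irf7, a regulator of interferon genes.

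All 7 listed members lie on mouse chromosome 5, in 2 clusters (GRCm38 coordinates from GENCODE vM21). Oasl2 (ENSMUSG00000029561.17, chr5:114896936-114912234) and Oasl1 (ENSMUSG00000041827.15, chr5:114923240-114937915) neighbour each other on the plus strand. Oas2 (ENSMUSG00000032690.16, chr5:120730333-120749853), Oas3 (ENSMUSG00000032661.9, chr5:120753098-120777661), Oas1c (ENSMUSG00000001166.17, chr5:120800194-120812514), Oas1g (ENSMUSG00000066861.14, chr5:120876142-120887613) and Oas1a (ENSMUSG00000052776.10, chr5:120896256-120907521) lie on the minus strand of the other cluster, which holds 9 genes of the table. The 4 other Oas-named genes there, Oas1d, Oas1e, Oas1f and Oas1h, reached at most 0.0371 FPKM, in Oas1e of control replicate 2. The nearest listed gene beside the Oasl cluster, 2210016L21Rik, had mean levels of 5.82, 5.52, 5.26 and 5.26 FPKM in control, TBI, TBI+DEIX and DEIX, while Gm9936 on its other side was near 0. Beside the larger cluster, mean levels were 1.56, 0.117, 0.160 and 0.678 FPKM for Dtx1 and 0.167, 0.383, 0.632 and 0.268 for Rph3a, in the same order of groups.

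The promoters are shown because the members' levels were correlated across libraries. RefSeq windows of 300 bases (GRCm38.p6, 250 before and 50 after the start of the gene) were matched for 6 of the 7 members, all but Oas2, and searched on both strands for GAAANNGAAA, the core of the interferon-stimulated response element. It was present in 4 of the 6 windows and in 1131 of all 32851 windows (3.44%). The lines below run 5′ to 3′ along the strand of each gene, with the matching letters in capitals, where overlapping matches of the motif are joined.
Oas1a, chr5:120907526-120907575, minus strand: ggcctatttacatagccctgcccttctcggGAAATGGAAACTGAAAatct
Oas1g, chr5:120887614-120887661, minus strand: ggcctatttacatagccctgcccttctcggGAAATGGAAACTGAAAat
Oas1c, chr5:120812583-120812658, minus strand: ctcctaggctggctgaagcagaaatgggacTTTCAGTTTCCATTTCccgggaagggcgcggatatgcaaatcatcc
Oas3, chr5:120777695-120777764, minus strand: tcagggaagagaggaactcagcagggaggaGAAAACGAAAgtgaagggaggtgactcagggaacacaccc

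Oas1a and Oas1g carried the same 16-letter element, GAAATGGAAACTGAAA, which ended 4 and 2 bases before their RefSeq starts. Oas1c carried these letters on the opposite strand, 98 bases before its start and with 6 bases between the element and the annotated start of Oas1b, which is transcribed the other way. Both strands counted, that run occurred in 7 of the 32851 windows (0.0213%), belonging to Oas1a, Oas1c, Oas1g, Apol9a and Apol9b. The Oas3 match ended 65 bases before the start. In the windows of Oasl1 and Oasl2 the searched letters did not occur. A match describes the letters of the window and is not a measured binding site.

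Per library, the sum of all FPKM values lay between 493683 and 848843. Total reads are not given, but 1 read was worth 0.878 to 2.35 times its FPKM in control replicate 1, and the TBI+DEIX libraries lay at 1.51 to 2.35, with DEIX replicate 1 at 1.68 among them. Markers of the cell types of marrow were present: all 67 genes of 13 marker lists were above 0 in every library. TBI+DEIX replicate 1 stood apart from the other libraries. It had the lowest FPKM sum, the fewest genes at FPKM of at least 1 (10359) and the highest value of 1 read (2.35). Its family score was -1.54 (the mean over the 7 members of log2(FPKM + 1), each centred on its mean over the 12 libraries), against 0.51 and 1.25 for TBI+DEIX replicates 2 and 3. All groups shared 1 estimate of each gene's spread, so this library also bears on the comparisons it is not part of, and the members' results are given with and without it. Leaving it out was chosen after seeing the data.

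Among the active synthetases of the OAS1 type, Oas1a stood at 31.7, 40.0 and 38.7 FPKM in control replicates 1 to 3, at 9.25, 14.8 and 11.4 in TBI, at 13.1, 5.48 and 15.1 in DEIX and at 4.30, 22.9 and 44.6 in TBI+DEIX. Every TBI and DEIX library was below every control library. In FPKM as deposited, the TBI+DEIX libraries ran from below the lowest TBI library to above the highest control. The value above control was in replicate 3, the library with the highest FPKM sum. Oas1g, the near copy of Oas1a, stood at 6.06, 8.29 and 5.39 FPKM in control, 1.11, 2.37 and 1.35 in TBI, 1.03, 0.377 and 1.50 in DEIX and 0.346, 4.80 and 13.1 in TBI+DEIX. It had the same order of libraries in TBI+DEIX, with replicate 3 above all controls. The transcript of Oas1a shared 57.6% of its 50-base words and 40.9% of its 100-base words with Oas1g, so the split of reads between the pair is uncertain. Oas1g made up 12.2% to 17.2% of the summed FPKM of the pair in control, 10.7% to 13.8% in TBI and 6.43% to 9.08% in DEIX, and 7.46%, 17.3% and 22.7% in TBI+DEIX replicates 1 to 3.

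Oas2 and Oas3 encode the larger synthetases, built of repeated OAS units. Oas2 stood at 33.7, 40.5 and 32.2 FPKM in control, 10.7, 15.6 and 12.3 in TBI, 14.5, 7.57 and 19.1 in DEIX and 9.22, 31.7 and 54.2 in TBI+DEIX. Oas3, the member with the highest level in all 9 treated libraries, stood at 54.3, 65.3 and 62.4 FPKM in control, 28.2, 29.5 and 23.1 in TBI, 28.3, 20.1 and 35.9 in DEIX and 12.7, 55.0 and 84.4 in TBI+DEIX. For both genes the TBI and DEIX libraries lay below all controls. TBI+DEIX replicate 3, the library with the highest FPKM sum, lay above the controls in FPKM as deposited. Neither transcript shared a 50-base word with another Oas gene.

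Oasl2, the active OAS-like enzyme with ubiquitin-like domains at its end, stood at 65.1, 88.3 and 72.6 FPKM in control and at 12.4, 17.5 and 13.4 in TBI. In TBI+DEIX it stood at 1.11, 48.0 and 80.3 FPKM, a 72.1-fold range within the group, and in DEIX at 23.7, 13.7 and 30.8. Oasl1 stood at 12.7, 15.4 and 15.4 FPKM in control, 3.20, 3.75 and 3.52 in TBI, 3.03, 2.47 and 4.69 in DEIX and 1.58, 7.29 and 11.0 in TBI+DEIX. No Oasl1 library of any treated group reached the control range. Oas1c, described as inactive, had the narrowest range: 6.10, 5.51 and 5.82 FPKM in control, 2.97, 2.97 and 3.05 in TBI, 1.87, 2.58 and 2.57 in DEIX and 3.29, 3.64 and 4.86 in TBI+DEIX. Its TBI+DEIX libraries lay between the TBI and the control libraries without overlap, and its DEIX libraries below all others.

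**Figure D1:**
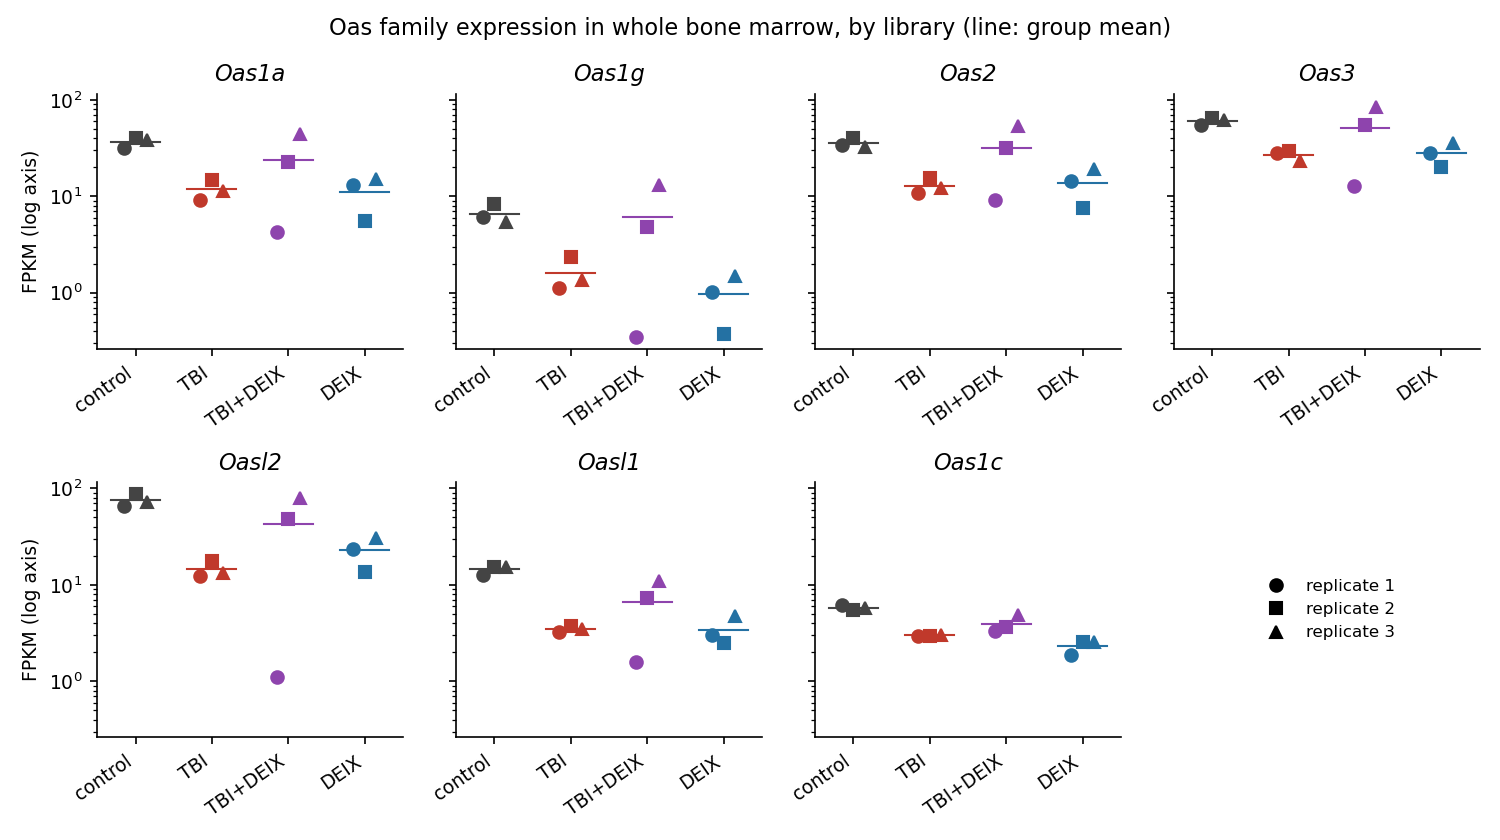
FPKM (log axis) of the 7 listed Oas family members in each library; the marker shape gives the replicate number and the line the group mean (n = 3). Every TBI and DEIX point lies below every control point, while TBI+DEIX points of Oasl2 run from 1.11 to 80.3 FPKM.

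FPKM is scaled by transcript length, so levels can be set side by side. In control marrow the mean levels ran from Oasl2 (75.3 ± 11.8 FPKM, SD, n = 3) over Oas3 (60.7 ± 5.69), Oas1a (36.8 ± 4.44), Oas2 (35.4 ± 4.43), Oasl1 (14.5 ± 1.55) and Oas1g (6.58 ± 1.52) to Oas1c (5.81 ± 0.294). The ranges of neighbours overlapped for Oasl2 and Oas3, for Oas1a and Oas2, and for Oas1g and Oas1c, and did not overlap at the other steps. In TBI marrow Oas3 led (26.9 ± 3.39), ahead of Oasl2 (14.4 ± 2.73), Oas2 (12.9 ± 2.48), Oas1a (11.8 ± 2.79), Oasl1 (3.49 ± 0.276), Oas1c (3.00 ± 0.0471) and Oas1g (1.61 ± 0.667). The level of Oasl2 relative to Oas3 was 1.20, 1.35 and 1.16 in the control libraries, 0.440, 0.595 and 0.580 in TBI, 0.837, 0.682 and 0.858 in DEIX and 0.0875, 0.873 and 0.951 in TBI+DEIX. Oasl2 exceeded Oas3 in each control library and in no treated library. DEIX means were 28.1 ± 7.91 FPKM for Oas3, 22.7 ± 8.60 for Oasl2, 13.7 ± 5.81 for Oas2, 11.2 ± 5.05 for Oas1a, 3.40 ± 1.16 for Oasl1, 2.34 ± 0.404 for Oas1c and 0.969 ± 0.566 for Oas1g.

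Summed over the 7 members, expression was 28.9%, 36.8% and 29.0% of the control mean in TBI replicates 1 to 3 and 36.4%, 22.2% and 46.6% in DEIX. In TBI+DEIX it was 13.9%, 73.7% and 124%. These percents are of FPKM as deposited. Replicate 3 of TBI+DEIX, at 124%, also had the highest FPKM sum over all genes (848843, against 549951 to 610464 in control). The family score was 0.99 ± 0.13 in control, -0.51 ± 0.19 in TBI, -0.55 ± 0.43 in DEIX and 0.07 ± 1.44 in TBI+DEIX (mean ± SD, n = 3). The spread within TBI+DEIX was thus the largest of the 4 groups, for the family as for the tested genes at large (root mean square SD of log2(FPKM + 1) 0.199 in control, 0.253 in TBI, 0.248 in DEIX and 0.442 in TBI+DEIX). TBI+DEIX replicate 1 was below every TBI library for 6 of the 7 members, all but Oas1c. Replicates 2 and 3 were above every TBI and DEIX library for 7 of 7 members. In FPKM as deposited, replicate 3 was above every control library for Oas1a, Oas1g, Oas2 and Oas3, which was not compared at equal FPKM sums.

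**Figure D2:**
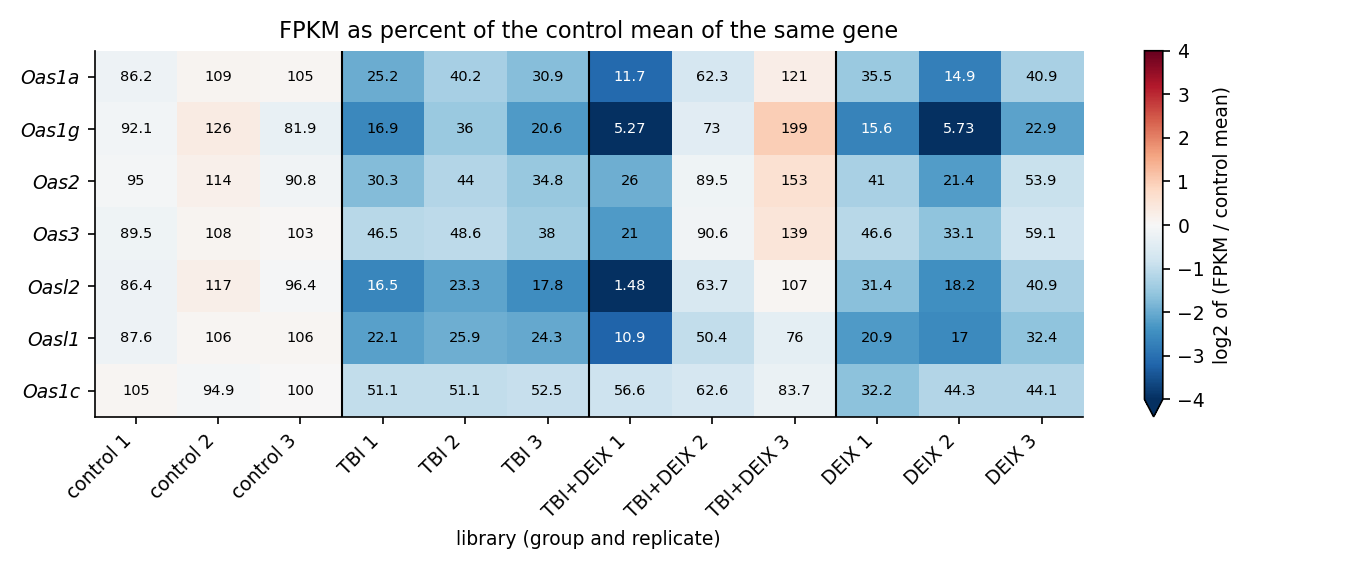
FPKM of each member (rows) in each library (columns) as a percent of that gene's control mean, printed in each cell; the colour is the log2 of the same ratio and ends at -4. TBI+DEIX replicate 1 runs from 1.48% (Oasl2) to 56.6% (Oas1c), and replicate 3 from 76.0% (Oasl1) to 199% (Oas1g).

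The comparison of TBI with control asks what marrow looked like 14 days after irradiation. All 7 members were at lower levels, by 5.21-fold for Oasl2, 4.14-fold for Oasl1, 4.08-fold for Oas1g, 3.12-fold for Oas1a, 2.75-fold for Oas2, 2.25-fold for Oas3 and 1.94-fold for Oas1c in mean FPKM. The groups did not overlap for 7 of 7 members, against 16.3% of tested genes that were lower without overlap. In limma's fit of log2(FPKM + 1) over all 12 libraries, with p-values adjusted by Benjamini-Hochberg over the 10994 genes tested and a call under 0.05, 2 members fell, against 3.10% of genes called lower. These were Oasl1 (-1.78, SE 0.43, adjusted p 0.0448) and Oas1c (-0.77, SE 0.13, adjusted p 0.00905). The other 5 had log2 changes from -2.31 (Oasl2, SE 1.01) to -1.15 (Oas3, SE 0.51), with adjusted p from 0.165 to 0.263. With TBI+DEIX replicate 1 left out of the shared spread, 7 of 7 were called by limma, with adjusted p from 0.000285 (Oasl1) to 0.0123 (Oas1g), against 7.20% of genes called lower. The same number was called in a fit of these 2 groups alone, against 7.76% of genes. The median change of the members was -1.55, and that of all genes tested was 0.05. The call of Oas1c was lost without control replicate 1 (limma adjusted p 0.0516), and that of Oasl1 without any 1 of the 6 libraries compared (adjusted p from 0.111 to 0.162).

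DEIX alone against control asks how marrow differed after DEIX without irradiation. Here too all 7 members were at lower levels, by 6.79-fold for Oas1g, 4.26-fold for Oasl1, 3.31-fold for Oasl2, 3.28-fold for Oas1a, 2.58-fold for Oas2, 2.49-fold for Oas1c and 2.16-fold for Oas3 in mean FPKM. The groups did not overlap for 7 of 7, against 17.2% of tested genes lower without overlap. Oas1c fell by 1.04 on the log2 scale (SE 0.13, limma adjusted p 0.00379) and Oasl1 by 1.84 (SE 0.43, limma adjusted p 0.0313), so that 2 of 7 were called, against 2.72% of genes called lower. The others had log2 changes from -1.97 (Oas1g, limma adjusted p 0.0848) to -1.12 (Oas3, 0.202), with Oasl2 at -1.74 (0.318). When the shared spread left out TBI+DEIX replicate 1, 7 of 7 were called, with limma adjusted p from 0.000591 (Oasl1) to 0.00950 (Oas2), against 8.48% of genes, and in a fit of these 2 groups alone also 7, against 7.78%. The median change was -1.73, beside 0.02 for all genes tested. The call of Oas1c held without any 1 of the 6 libraries, and that of Oasl1 was lost without each (limma adjusted p from 0.0620 to 0.116). This comparison and the former use the same control libraries, so their likeness is not independent.

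TBI+DEIX against TBI asks how marrow of irradiated mice differed with DEIX. Mean FPKM of the 7 members was 1.31-fold (Oas1c) to 3.78-fold (Oas1g) that of TBI, with log2 changes from 0.29 (Oas1c, SE 0.13) to 0.94 (Oas2, SE 0.50), while the TBI+DEIX libraries ran from below TBI to above it for 6 of the 7. None of the 7 was called by limma (adjusted p from 0.184 for Oas1c to 0.828 for Oasl2), against 4.69% of genes called higher. Only Oas1c had an unadjusted p under 0.05, against 27.2% of genes in either direction. In a fit of these 2 groups alone 0 members and 0% of genes were called. The groups did not overlap for 1 member, Oas1c, against 14.5% of genes higher without overlap. For Oas1g the 95% interval of the log2 change ran from -0.49 to 2.30, and for Oasl2 from -1.82 to 2.64. Without TBI+DEIX replicate 1, all 7 were called higher by limma, from 0.38 (Oas1c, adjusted p 0.0488) over 1.63 (Oas2, 0.00901) to 2.04 (Oasl2, 0.00397), against 16.2% of genes called higher. Without TBI+DEIX replicate 3, Oas1a (-0.16), Oas3 (-0.0034) and Oasl2 (-0.59) had negative log2 changes. The result thus turned on which TBI+DEIX libraries were used: the median of the members was 0.51 with all 3, 1.39 without replicate 1 and 0.04 without replicate 3.

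**Figure D3:**
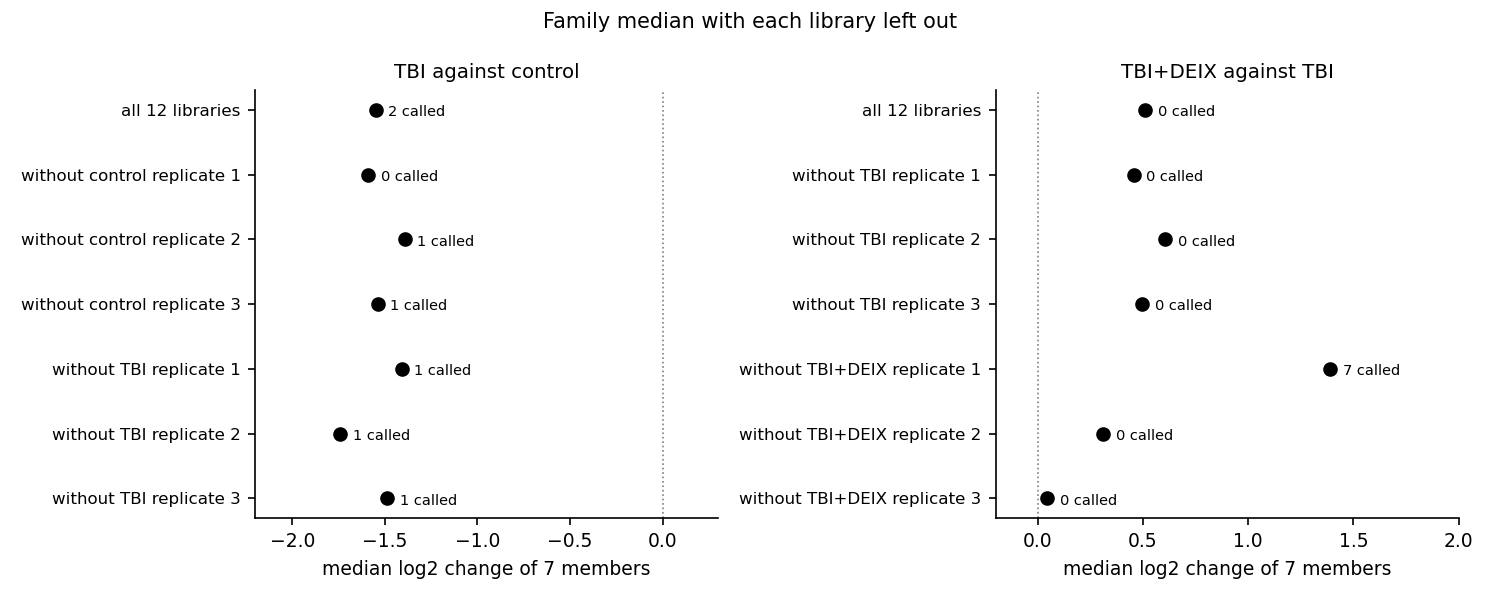
Median log2 change of the 7 members with all 12 libraries and with each library of the 2 groups compared left out; the number of members called at an adjusted p under 0.05 is written beside each point. TBI against control (left) stays between -1.74 and -1.39, while TBI+DEIX against TBI (right) runs from 0.04 to 1.39 with 0 or 7 members called.

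Against control, TBI+DEIX marrow had lower mean FPKM for each member, from 1.08-fold (Oas1g) to 2.18-fold (Oasl1). Oasl1 (-1.28, SE 0.43, limma adjusted p 0.0442) and Oas1c (-0.48, SE 0.13, limma adjusted p 0.0195) fell, 2 of 7, against 13.1% of genes called lower. These 2 were also the members without overlap of the groups, against 21.1% of genes lower without overlap. In a fit of these 2 groups alone neither was called by limma (adjusted p 0.141 and 0.0633), against 8.86% of genes called lower. Both were called without TBI+DEIX replicate 1 (adjusted p 0.0335 and 0.0356, against 15.3% of genes called lower), and Oas1g (0.27), Oas2 (0.23) and Oas3 (0.17) had positive log2 changes. The call of Oasl1 was lost without control replicate 1, 2 or 3 (limma adjusted p from 0.0799 to 0.115), and that of Oas1c without control replicate 1 or 3 or TBI+DEIX replicate 2 (limma adjusted p from 0.0525 to 0.0663). With TBI+DEIX replicate 3 left out, 4 of 7 members were called lower, against 11.2% of genes called lower. The median of the members was -0.64 with all libraries, -0.19 when TBI+DEIX replicate 1 was left out and -1.42 when its replicate 3 was.

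The interaction asks whether the change with DEIX was alike in irradiated and unirradiated mice: it is the change from TBI to TBI+DEIX minus that from control to DEIX. Oral dosing is stated for both groups of the first change, but not for control in the second. Differences by irradiation and by oral dosing therefore cannot be told apart in it. The interaction was positive for 7 of 7 members, from 1.33 (Oas1c) to 2.87 (Oas1g), with a median of 2.24 beside -0.02 for all genes. Oas1c passed the threshold (SE 0.19, limma adjusted p 0.0160), 1 of 7, against 0.191% of genes called higher, and 6 of 7 had an unadjusted p under 0.05, against 7.50% of genes in either direction. The 6 other members had limma adjusted p from 0.210 (Oasl1) to 0.874 (Oasl2). Without TBI+DEIX replicate 1, all 7 were called by limma, from 1.42 (Oas1c, adjusted p 0.00189) to 3.79 (Oas1g and Oasl2, 0.00268 and 0.000974), against 2.57% of genes called higher. The call of Oas1c was lost without control replicate 1, 2 or 3, TBI replicate 1 or 2, or DEIX replicate 1 (limma adjusted p from 0.0536 to 0.0737). With libraries weighted by their fit (limma array weights), 7 of 7 members were called lower in TBI and in DEIX and higher from TBI to TBI+DEIX and in the interaction, where 27.7%, 21.4%, 27.7% and 6.66% of genes were called in those directions. In TBI+DEIX against control the weighted fit called 3 members lower (Oas1c, Oasl1 and Oasl2), against 29.3% of genes.

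**Figure D4:**
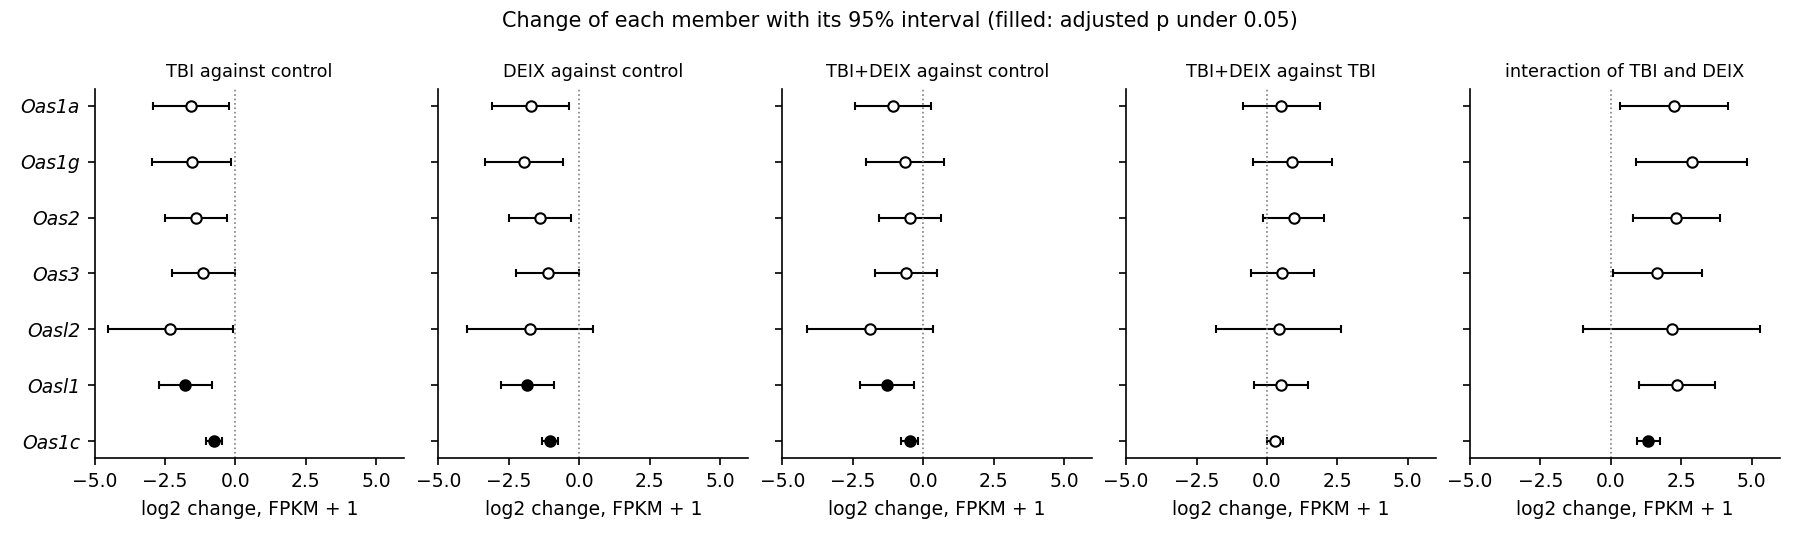
Log2 change of each member in FPKM + 1 with its 95% interval from limma, in the 5 contrasts; filled points have an adjusted p under 0.05. Oas1c has the narrowest intervals and is filled in 4 of the 5 panels, and Oasl1 in 3.

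Across the 12 libraries, log2 levels of a member correlated with the mean of the other members at a Pearson r of 0.905 to 0.986 for 6 members and 0.754 for Oas1c. The closest pair was Oas1g with Oas2 (0.976), followed by Oas3 with Oas1a (0.973). The loosest was Oasl2 with Oas1c (0.591). These values describe libraries that share groups, and they carry no test. The 5 genes outside the family whose levels were most like the family score over the 12 libraries were Gbp7 (r 0.984), Ifit1 (0.982), Rtp4 (0.976), Ifit1bl1 (0.971) and Parp12 (0.971). Ifit1 stood at 14.1, 21.5 and 16.6 FPKM in control, 2.19, 2.66 and 1.74 in TBI, 3.29, 1.85 and 4.19 in DEIX and 0.350, 6.91 and 15.7 in TBI+DEIX, with TBI+DEIX replicate 1 the lowest of the 12, as for Oasl2. Rtp4 ran from 0.950 in TBI+DEIX replicate 1 to 85.5 in control replicate 2.

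Upstream of the family, interferon ligands were hardly seen. None of 9 ligand genes passed the filter: Ifnb1, Ifna2, Ifna4, Ifne, Ifnl2 and Ifnl3 were listed at 0 in every library, Ifna1 and Ifnk were above 0 in 1 library each, and Ifng reached at most 0.807 FPKM. The receptor genes were not called: Ifnar1 had log2 changes of -0.11 in TBI and 0.15 in DEIX, and Ifnar2 of -0.18 and 0.12. Stat2, a subunit of ISGF3, stood at 19.0, 19.3 and 18.2 FPKM in control, 11.9, 12.8 and 11.9 in TBI, 11.9 to 16.8 in DEIX and 10.7, 16.1 and 20.1 in TBI+DEIX. Irf9, its DNA-binding subunit, stood at 54.1, 59.9 and 64.9 FPKM in control, 30.2, 28.2 and 26.7 in TBI, 33.5, 27.3 and 39.8 in DEIX and 12.3, 43.3 and 52.6 in TBI+DEIX. Irf7 stood at 57.2, 67.8 and 64.3 FPKM in control, 17.3, 17.9 and 14.4 in TBI, 20.9, 16.8 and 27.0 in DEIX and 5.94, 33.4 and 54.5 in TBI+DEIX. With all libraries none of these 3 genes was called by limma in TBI (Stat2 -0.59, adjusted p 0.119, Irf9 -1.04, 0.193, Irf7 -1.87, 0.102), and without TBI+DEIX replicate 1 all 3 were called lower (limma adjusted p 0.0104, 0.000804 and 0.000285). In DEIX they were at -0.43, -0.82 and -1.53, again called lower by limma only without that library (adjusted p 0.0309, 0.00336 and 0.00119). Jak1, a kinase of the receptor, rose in DEIX by 0.37 with all libraries (limma adjusted p 0.0457) and in TBI+DEIX against control by 0.43 (limma adjusted p 0.00808). Between TBI and TBI+DEIX the log2 changes of Stat2, Irf9 and Irf7 were 0.30, 0.11 and 0.44, none called with all libraries, and 0.53, 0.73 and 1.32 without replicate 1, all called higher by limma (adjusted p 0.0196, 0.00974 and 0.00496).

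**Figure D5:**
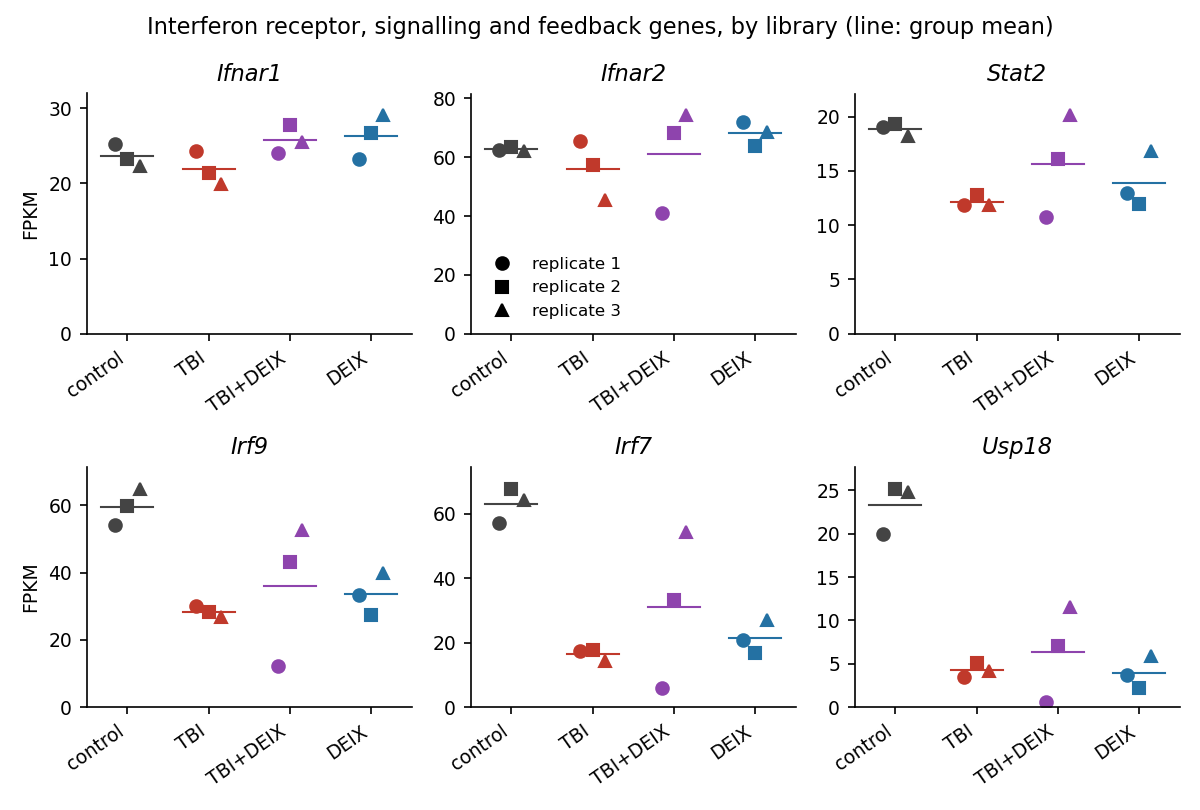
FPKM (axis from 0) of the receptor genes Ifnar1 and Ifnar2, of Stat2, Irf9 and Irf7, and of the feedback gene Usp18 in each library; shapes give the replicate number and lines the group mean. Irf7 lies at 57.2 to 67.8 FPKM in control and at 14.4 to 17.9 in TBI, while Ifnar1 lies at 22.3 to 25.2 in control and 19.9 to 24.3 in TBI.

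Downstream, Pde12, which degrades 2'-5' oligoadenylates, stood at 5.96, 6.08 and 5.16 FPKM in control, 7.18, 7.13 and 7.41 in TBI, 7.09, 6.78 and 6.14 in DEIX and 11.4, 6.92 and 6.58 in TBI+DEIX. Its highest value was in TBI+DEIX replicate 1, where the Oas genes were lowest in their group. It was called in no contrast with all libraries (limma adjusted p 0.382 in TBI, 0.518 in DEIX and 0.0684 in TBI+DEIX against control), and higher in TBI by 0.29 without that library (limma adjusted p 0.0443).

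Of 8 other genes of double-stranded RNA sensing, 6 had negative log2 changes in TBI and 8 in DEIX. Among them, Ifih1 (Mda5) and Adar (an RNA editing enzyme) fell in TBI (-0.68, limma adjusted p 0.0313, and -0.58, 0.0192) and in DEIX (-0.67, limma adjusted p 0.0277, and -0.50, 0.0298). In the fit without TBI+DEIX replicate 1, 6 of 8 were called lower in TBI and 5 of 8 in DEIX, against 7.20% and 8.48% of all genes. The median changes of the 8 were -0.67 and -0.57, beside 0.05 and 0.02 for all genes tested. Mavs, an adaptor used by Ifih1, fell in TBI+DEIX against control (-0.59, limma adjusted p 0.0174) and against TBI (-0.66, 0.0341). Of the 6 genes of cytosolic DNA sensing, Trex1, a nuclease, fell in TBI (-1.11, limma adjusted p 0.0359) and TBI+DEIX against control (-1.09, limma adjusted p 0.00911), and Tbk1, a kinase, rose in the latter (0.39, 0.0260). Of 11 antiviral interferon-stimulated genes tested, 11 had negative log2 changes in TBI (median -1.79) and in DEIX (median -1.77). With all libraries 0 were called in TBI and 1, Ifit3, in DEIX (-2.80, limma adjusted p 0.0499), against 3.10% and 2.72% of all genes called lower. The counts were 9 and 10 without TBI+DEIX replicate 1, against 7.20% and 8.48%. The interaction was positive for 11 of 11 (median 1.34), with 0 called by limma, against 0.191% of genes called higher. From TBI to TBI+DEIX 6 of 11 had positive log2 changes and 0 were called higher, against 4.69%. Without that library limma called 8 and 7 of 11 higher in these contrasts, against 2.57% and 16.2% of genes. Of the 8 sensing genes 0 and 0 were called higher with all libraries, and 6 and 5 without it. In TBI+DEIX against control Ifit3, Mx1, Isg15, Bst2 and Xaf1 fell, by 2.45, 1.56, 2.42, 1.99 and 2.02 on the log2 scale (limma adjusted p from 0.00466 to 0.0360). These were 5 of the 11, against 13.1% of genes called lower. Their log2 changes were smaller without TBI+DEIX replicate 1, at -1.26, -0.99, -1.22, -1.35 and -1.17. They were still called (limma adjusted p from 0.000240 to 0.0138), against 15.3% of genes called lower. The fall of Trex1 in the same comparison was -0.72 without that library (limma adjusted p 0.00242). Mx2, the twelfth gene of this list, was not analysed here.

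Feedback genes of the pathway differed among themselves. Socs1, an inhibitor of interferon receptor signalling, stood at 3.30, 3.49 and 4.76 FPKM in control, 1.22, 1.72 and 1.47 in TBI, 2.05, 1.70 and 1.42 in DEIX and 2.90, 3.11 and 2.89 in TBI+DEIX. It fell in TBI (-0.97, limma adjusted p 0.00321) and DEIX (-0.83, 0.00819), rose from TBI to TBI+DEIX (0.69, limma adjusted p 0.0203), and had an interaction of 1.52 (limma adjusted p 0.0142). Its TBI+DEIX libraries lay close together, unlike those of most Oas genes. Usp18, which removes Isg15 from proteins and dampens the receptor, fell in DEIX (-2.36, limma adjusted p 0.0354) and in TBI+DEIX against control (-2.14, 0.0181), and was at -2.22 in TBI (limma adjusted p 0.0624). It was called lower in TBI too without TBI+DEIX replicate 1 (limma adjusted p 0.000472), and the change in TBI+DEIX against control was -1.27 (0.00586). Socs3, an inhibitor of cytokine receptors of the interleukin-6 class, rose in DEIX (1.36, limma adjusted p 0.00753) and in TBI+DEIX against both control (1.76, 0.000410) and TBI (1.98, 0.00411). Of the interferon gamma genes, Ifngr1, a receptor subunit, rose in DEIX (0.62, limma adjusted p 0.0328). The calls given here for Ifih1, Adar, Mavs, Trex1, Tbk1, Jak1, Socs1, Socs3 and Ifngr1 were also made without TBI+DEIX replicate 1.

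Whole marrow is a mixture, so fewer cells of a type and less RNA per cell cannot be told apart. Summed FPKM of 5 markers of plasmacytoid dendritic cells lay at 56.0 to 57.4 in control, 16.8 to 24.0 in TBI, 26.1 to 32.2 in DEIX and 4.42 to 14.7 in TBI+DEIX, with 4 of 5 called lower by limma in TBI and 0 of 5 in DEIX, against 3.10% and 2.72% of all genes. Without TBI+DEIX replicate 1, 5 of 5 were called lower in TBI and 3 of 5 in DEIX, against 7.20% and 8.48%. Every TBI+DEIX library was below every TBI library in this sum, while the mean levels of the Oas genes were higher in TBI+DEIX than in TBI. The sum of 7 B lineage markers was 324 to 405 in control, 21.4, 198 and 240 in TBI, 55.8 to 86.1 in DEIX and 5.42, 131 and 61.6 in TBI+DEIX. Of 5 classical monocyte markers 0 were called lower in TBI or DEIX and 2 rose in DEIX, against 4.52% of genes called higher (4 of 5 without TBI+DEIX replicate 1, against 13.3%). Their sum was 1911 to 1953 in control, 1317 to 2087 in TBI, 2238 to 2600 in DEIX and 770, 1907 and 2586 in TBI+DEIX. In TBI+DEIX against control all 5 had negative log2 changes (median -0.48), and 1 was called lower by limma, against 13.1% of genes. Without TBI+DEIX replicate 1 the median was -0.16 and 2 were called lower, against 15.3%. The median interaction of these markers was -1.38 with all libraries and -0.94 without that library. The sum of 7 neutrophil markers was 16425 to 23480 in control, 18034 to 22218 in TBI, 19166 to 23954 in DEIX and 12040, 38307 and 34597 in TBI+DEIX. Within its group, TBI+DEIX replicate 1 was the lowest library for the Oas genes and for the plasmacytoid, B lineage, classical monocyte and neutrophil sums. It was also the lowest for the macrophage sum (93.1, against 151 and 115) and the T and NK cell sum (12.2, against 27.2 and 24.0). The same held for the sums of megakaryocytes, of plasma cells, and of eosinophils, basophils and mast cells. This library was the highest for the nonclassical monocyte sum (141, against 105 and 107 in replicates 2 and 3). So it was for the stem and progenitor sum (34.0, against 22.6 and 20.9). Its erythroid sum (74.1) lay between theirs (156 and 49.9), as did its stroma and endothelium sum (23.2, against 24.0 and 17.6). The macrophage sum of 6 markers was 112 to 134 in control, 55.1 to 89.1 in TBI, 58.2 to 70.0 in DEIX and 93.1 to 151 in TBI+DEIX, with 2 of 6 called lower by limma in TBI, 3 of 6 lower in DEIX, 2 of 6 higher from TBI to TBI+DEIX and 2 of 6 higher in the interaction (median 1.46). The shares of all genes called in those directions were 3.10%, 2.72%, 4.69% and 0.191%. With TBI+DEIX replicate 1 left out these counts were 2, 5, 3 and 3 of 6, against 7.20%, 8.48%, 16.2% and 2.57%. The sum of 6 T and NK cell markers was 27.6 to 32.8 in control, 12.5 to 20.0 in TBI, 18.9 to 26.1 in DEIX and 12.2 to 27.2 in TBI+DEIX. Of these markers limma called 1 lower in TBI, 0 lower in DEIX, 0 higher from TBI to TBI+DEIX and 0 higher in the interaction. Without TBI+DEIX replicate 1 the counts were 6, 2, 4 and 2 of 6, against 7.20%, 8.48%, 16.2% and 2.57% of genes. The part of these cell types in the Oas levels was not tested.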

How the data were processed

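Per the labels' protocols, directional mRNA libraries were made from whole marrow of 12 samples. The authors deposited 1 table of FPKM values (fragments scaled by transcript length and library size) for 21853 genes. STAR 2.6, Cufflinks 2.2.1 and mm10 are named in the submitters' processing notes, without their order or settings. All identifiers matched GENCODE vM21. FPKM holds no counts, so the tests used log2(FPKM + 1), which understates changes of low genes, in genes with FPKM of at least 1 in at least 3 libraries (10994). limma 3.58.1 in R 4.3.3 (lmFit, eBayes with a mean-variance trend) fitted 1 mean per group over all 12 libraries (8 residual degrees of freedom), two-sided, with Benjamini-Hochberg adjustment and a call under 0.05. The procedure was tested on simulated data. The named genes are the family, the other Oas-named genes, called genes of 8 pathway lists with Stat2, Irf9, Irf7, Ifnar1 and Ifnar2, the 5 genes most correlated with the family score and the genes beside each cluster. Some genes of these lists are not reported here. Members and lists were chosen with earlier results of these data known. The medians use the fit without the filter. Alternatives changed the pseudocount, filter, scale, libraries, weights and a replicate block. Promoter windows came from RefSeq (GRCm38.p6).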

Additional observations from a re-analysis of the deposited data

Results flagged for a closer look

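The interaction of irradiation and DEIX for Oas1c was 1.33 on the log2 scale (limma adjusted p 0.0160): Oas1c fell in DEIX against control (-1.04, 3 of 3 DEIX libraries below all controls), whereas in irradiated mice all 3 TBI+DEIX libraries were above all TBI libraries (0.29, limma adjusted p 0.184). The difference between these changes was itself tested, and it drew attention because the change with DEIX differed with irradiation. No gavage is stated for control mice, so DEIX and oral dosing cannot be told apart in the change without irradiation. The same limit holds for the difference. Over the alternatives the adjusted p of the interaction ran from 0.000158 to 0.0737.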

How the results depend on the processing

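With all libraries 2, 2, 2, 0 and 1 of 7 members were called by limma in TBI, DEIX and TBI+DEIX against control, in TBI+DEIX against TBI and in the interaction. The genes called over the whole table were 439, 796, 3299, 891 and 22 of 10994. A pseudocount of 0.1 gave 1 in TBI and 1 in TBI+DEIX against control, with 356 and 3276 genes called. With no filter on low values 1 was called in each of the 3 comparisons with control, with 675, 805 and 3637 of 17304 genes. A mean FPKM of at least 5, which left 5 members tested, gave 0, 1, 1 and 0 in TBI, DEIX, TBI+DEIX against control and the interaction, with 134, 576, 2517 and 7 of 8339 genes. The TPM scale gave 5 in DEIX, where it called fewer genes, 282. A fit of the compared groups alone gave 7, 7 and 0 in TBI, DEIX and TBI+DEIX against control, with 1417, 2057 and 2181 genes called, and the shared spread without TBI+DEIX replicate 1, chosen after seeing the data, 7 and 7 in TBI and DEIX. Array weights gave 7 in TBI, DEIX, TBI+DEIX against TBI and the interaction, with 7017, 5249, 5532 and 1148 genes. The causes were not tested. Leaving out 1 replicate each gave 0 to 1 in TBI, 1 in DEIX, 0 to 4 in TBI+DEIX against control, 0 to 7 against TBI and 0 to 7 in the interaction, with 153 to 259, 146 to 938, 2004 to 4232, 5 to 2836 and 4 to 331 genes called over the whole table.

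Medians with 1 replicate left out ran from -1.74 to -1.39 in TBI, -1.98 to -1.32 in DEIX, -1.42 to -0.19 in TBI+DEIX against control, 0.04 to 1.39 against TBI and 1.56 to 3.01 in the interaction. Single members changed sign with 1 replicate left out. In TBI+DEIX against control the log2 changes were 0.27 (Oas1g), 0.23 (Oas2) and 0.17 (Oas3) without its replicate 1, and -1.42, -0.99 and -1.15 without its replicate 3. In TBI+DEIX against TBI, without its replicate 3, Oas1a was -0.16, Oas3 -0.0034 and Oasl2 -0.59, and Oasl2 was -0.22 without replicate 2, while without replicate 1 these were 1.39, 1.31 and 2.04.

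With the replicate block the members called stayed at 2, 2, 2, 0 and 1 and the medians at -1.55, -1.73, -0.64, 0.51 and 2.24. With the block 378, 640, 3000, 474 and 20 genes were called over the whole table. Deviations of same-numbered libraries from their group means had r from -0.45 to 0.24 (18 pairs, 3 over 0.1). Differently numbered libraries were not compared, so this check cannot exclude that the numbers pair the samples. Over all alternatives the whole-table counts ran from 134 to 7017, 146 to 5249, 1785 to 6866, 0 to 5532 and 4 to 1148, the highest with array weights. Depth is known only as relative values, so no limit could be given for single members.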
